A study of Mus musculus with 2 samples.

Results

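The genes described here are 40 symbols listed for the interstitial stroma of the kidney, the connective tissue cells that lie between nephrons, collecting ducts and vessels. They were chosen by name and matched through their Ensembl identifiers, and 39 of the 40 were found among the 43346 mouse genes of both libraries. Smoc3 was not matched and is named only. The list holds 4 markers of the cortical stroma, 2 of the medullary stroma, 5 general fibroblast markers, 9 genes of secreted matrix (8 matched), 6 ligands and receptors of platelet-derived growth factor (PDGF), 11 transcription factors of mesenchyme and 3 other secreted signals.

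The tissue was whole kidney of healthy B6NCrl mouse embryos at 16.5 days of development, without a genetic change or a treatment in the labels. Both libraries belong to this 1 group and came from RNA pooled over male and female embryos. Replicate 2 was made from 41 embryos, while the sources used here do not say how many went into replicate 1. RNA longer than 200 nt was sequenced from an input of 10 ng, with 34261328 estimated counts on mouse genes in replicate 1 and 37900132 in replicate 2. With 1 library for each pool no test between the pools can be made, so differences are given as values beside the spread between the libraries and the counting error.

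Renal stroma descends largely from Foxd1-expressing cells around the cap mesenchyme and later differs by depth: cortical stroma surrounds the forming nephrons and medullary stroma the loops and collecting ducts. Stromal cells signal to nephron progenitors, give rise to fibroblasts and mural cells, and secrete the matrix of the interstitium. Decorin, lumican, osteoglycin and biglycan are small leucine-rich proteoglycans that bind collagen fibrils or growth factors, whereas versican is a large proteoglycan that binds hyaluronan. PDGF-A and PDGF-C signal mainly through the receptor Pdgfra, and PDGF-B and PDGF-D mainly through Pdgfrb, which recruits mural cells to vessels.

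Levels are given in TPM, the unit that scales counts to transcript length and library size, so that different genes can be compared. Detection means at least 1 TPM in each of the libraries, which 36 of the 39 matched genes reached, beside 62.2% of all protein-coding genes (13352 of 21474). The 3 below that level were Tnxb, Ebf2 and Ebf3. The median over the 39 genes was 24.43 TPM, beside 5.498 TPM over all protein-coding genes and 20.82 TPM over the detected ones. Together the 39 genes took 0.37% of mouse TPM in replicate 1 and 0.3744% in replicate 2, and Mdk, Lgals1 and Penk held 54.55% and 54.5% of that. In RNA from whole tissue, fewer cells of a type and less RNA per cell cannot be told apart.

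**Figure D1:**
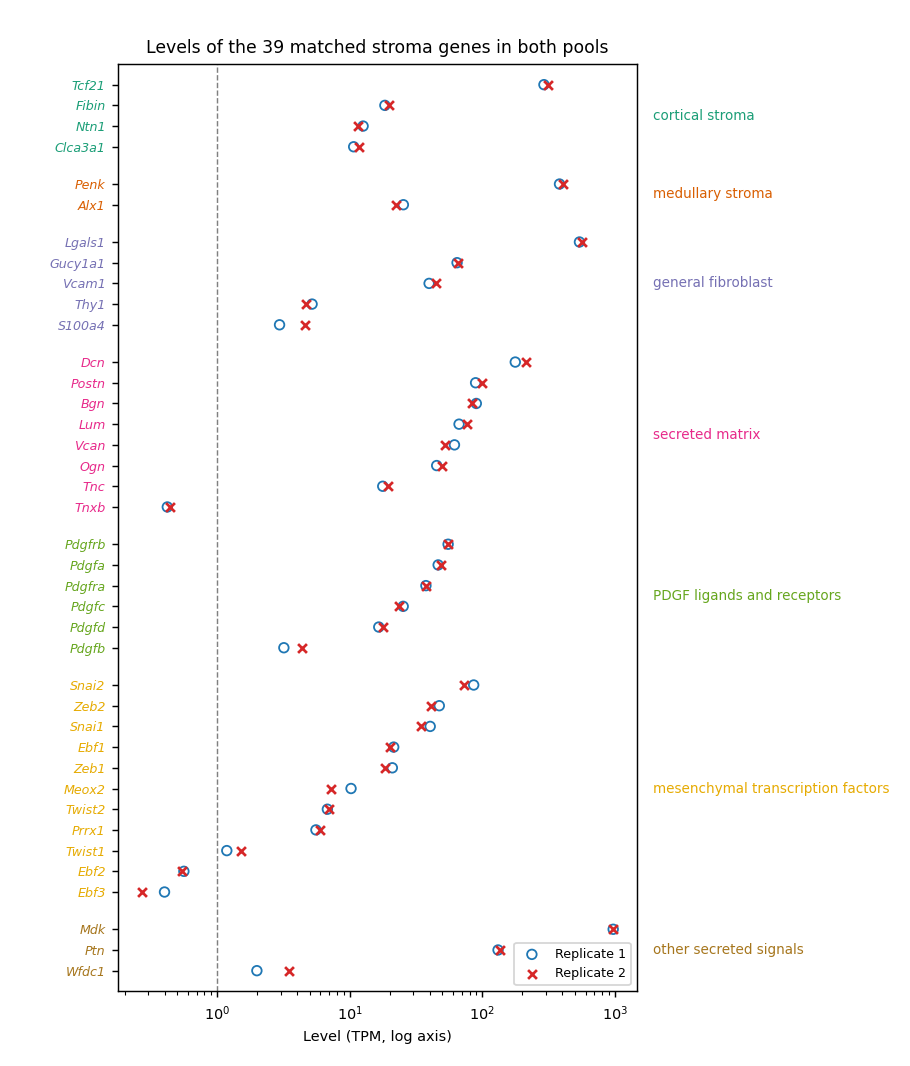
Level of each matched gene in TPM on a log axis, with replicate 1 as an open circle and replicate 2 as a cross, ordered by mean level within each group. The dashed line marks 1 TPM. Tnxb, Ebf2 and Ebf3 lie below it in both libraries, and Mdk, at 971.43 TPM in the mean, lies furthest to the right.

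Of the zone markers, 1 gene in each zone stood far above its group. Tcf21, a basic helix-loop-helix factor of cortical stroma that podocytes also make (chromosome 10, 22817281 to 22820174, minus strand of GRCm38), was at 291.16 TPM in replicate 1 and 310.88 TPM in replicate 2. Penk, the precursor of the enkephalin opioid peptides and a medullary marker (chromosome 4, 4133531 to 4138819, minus strand), was at 381.63 and 407.38 TPM. Penk lay above Tcf21 by 1.311-fold in replicate 1 and 1.31-fold in replicate 2, and the ranges of the 2 genes did not overlap. Podocyte markers were present in the same RNA at 6 of 6, with summed levels of 275.8 and 267.5 TPM. Without Wt1, the highest of them, the sums were 159.6 and 163.2 TPM. The part of podocytes in the Tcf21 level was not tested. Chromaffin and nerve markers were also present, 6 of 7, with sums of 70.09 and 44.87 TPM. The part of cells outside the medullary stroma in the Penk level was not tested either.

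The other zone markers formed a lower tier. Fibin, a secreted fin bud initiation factor homologue, was at 18.38 and 19.59 TPM. Ntn1, which encodes the guidance cue netrin-1, was at 12.59 and 11.44 TPM, and the calcium-activated chloride channel regulator Clca3a1 at 10.69 and 11.65 TPM. Fibin was above both in each library, while the ranges of Ntn1 and Clca3a1 overlapped, so these neighbours did not differ beyond their spread. In the medullary pair, the homeobox gene Alx1 stood at 25.34 and 22.25 TPM, above all of the cortical genes but Tcf21.

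The medullary median was higher than the cortical one. On the log2(mean TPM + 0.1) scale, cortical minus medullary came to -2.67 (-2.69 in replicate 1 and -2.65 in replicate 2). With 2 medullary genes and 4 cortical genes this value rests on which genes were listed: without Fibin and Clca3a1 it was -0.685. Of the exon bases of Penk, 14.3% are shared with A830012C17Rik, a noncoding gene on the opposite strand at 2.34 and 2.75 TPM.

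Other genes known from stromal zones were all detected, 12 of 12, with a median of 46.89 TPM. Aldh1a2, which makes retinoic acid, led with 267.98 and 279.63 TPM, followed by the homeobox gene Meis1 (104.43 and 104.37) and the claudin Cldn11 (97.39 and 88.55). Smoc1, a secreted calcium-binding matrix protein, was lowest at 1.35 and 1.75 TPM. Its relative Smoc2 was 54.16-fold higher than Smoc1 in replicate 1 and 45.7-fold in replicate 2. Foxd1, the marker of stromal progenitors, was at 4.48 and 3.9 TPM, so that Tcf21 exceeded it 64.99-fold and 79.71-fold.

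Receptors of netrin-1 were uneven. Neo1 (neogenin) was at 19.86 and 20.78 TPM and Unc5c at 22.43 and 17.94 TPM, both above Ntn1 in each library. Unc5b was at 8.54 and 8.77 TPM, and Dcc, the classical netrin receptor of neurons, stayed below 1 TPM (0.54 and 0.38). The mu and delta opioid receptors, to which enkephalins bind, were also below 1 TPM: Oprm1 at 0.38 and 0.2 and Oprd1 at 0.06 and 0.15.

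General fibroblast markers did not share 1 level. Lgals1, which encodes the carbohydrate-binding protein galectin-1, stood at 539.61 and 564.72 TPM, and 0.9826% of protein-coding genes were at or above its mean. Gucy1a1, the alpha subunit of the nitric oxide receptor guanylate cyclase, was at 64.39 and 65.44 TPM, and the adhesion molecule Vcam1 at 39.62 and 45.04 TPM. Thy1, a glycolipid-anchored surface protein also made by neurons, was at 5.19 and 4.71 TPM, and S100a4, a calcium-binding protein long used as a fibroblast marker, at 2.95 and 4.62 TPM. Lgals1 thus exceeded Thy1 by 104.0-fold and 119.9-fold, and Thy1 lay above S100a4 in each library while the ranges nearly met.

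S100a4 rested on 27 and 46 counts, the fewest in sum of the 39 genes. Exact 95% intervals for counting error alone ran from 1.944 to 4.292 TPM in replicate 1 and from 3.382 to 6.162 TPM in replicate 2 and overlapped. Of its exon bases, 51.7% are shared with Gm42674 on the same strand in GENCODE M21. The deposited tables list Gm42674-201 as a transcript of S100a4, at 0 TPM in both libraries, and gave all counts of the gene to S100a4-201. Gucy1b1, the beta subunit that pairs with Gucy1a1, stood at 32.33 and 31.68 TPM, and Gucy1a1 exceeded it 1.992-fold and 2.066-fold. The alternative alpha subunit Gucy1a2 was close to the detection level, at 1.15 and 1.02 TPM. Among the relatives of Lgals1, Lgals9 stood at 43.01 and 49.94 TPM and Lgals3 at 28.29 and 37.26 TPM, both far below it.

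The zone markers had a lower median than the fibroblast markers, with a difference of -0.99 on the log2 scale (-0.87 and -1.11 in the 2 libraries). This direction depends on the summary: with the mean in place of the median the difference was 0.50, and without Fibin and Clca3a1 it was 1.00. The median of the secreted matrix genes lay above that of the fibroblast markers by 0.59 (0.69 and 0.48), or by 0.22 with the mean in place of the median. It lay above the zone markers by 1.58 (1.56 and 1.58), which turned to -0.28 with the mean and to -0.413 without Fibin and Clca3a1.

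Decorin led the matrix genes. Dcn (chromosome 10, 97479609 to 97518143, plus strand) was at 176.97 and 213.23 TPM, and 3.488% of protein-coding genes were at or above its mean. Postn, which encodes the cell-adhesive matrix protein periostin, was at 88.86 and 98.51 TPM, and Bgn (biglycan) at 89.95 and 83.55 TPM, so that their order differed between the libraries. Lum (lumican) followed at 66.65 and 76.08 TPM and Vcan (versican) at 61.54 and 51.84 TPM, with Lum above Vcan in each library. Ogn (osteoglycin) was at 45.2 and 49.9 TPM, below both.

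The tenascins differed widely. Tnc, tenascin-C, an anti-adhesive glycoprotein of embryonic and healing tissue, was at 17.71 and 19.39 TPM. Tnxb, the tenascin of mature collagen-rich connective tissue, was at 0.42 and 0.44 TPM from 103 and 124 counts, so that Tnc exceeded it 42.17-fold and 44.07-fold. Neither Tnr nor Tnn reached 1 TPM. Fn1 (fibronectin) led the list of other hyalectans, links and tenascins with 145.13 and 141.82 TPM, while Acan (aggrecan), Ncan and Bcan, the relatives of versican, were each at or below 0.25 TPM.

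At the loci examined, neighbouring genes outside the list lay below the matrix genes, by widely different folds. On chromosome 10 the order along the plus strand is Dcn, Lum, Kera and Epyc, 4 proteoglycan genes with gaps of 47.0, 34.2 and 30.4 kb. Kera (0.31 and 0.33 TPM) and Epyc (0.29 and 0.32 TPM) were below detection, and Lum exceeded Kera by 215.0-fold and 230.5-fold. On chromosome 13, Ecm2 (1.02 and 0.83), Aspn (12.89 and 16.44), Omd (1.7 and 0.91) and Ogn followed each other, with Ogn 3.507-fold and 3.035-fold above Aspn. Hapln1, which encodes a protein that links versican to hyaluronan and lies 43.7 kb from Vcan, stood at 8.19 and 8.06 TPM, 7.514-fold and 6.432-fold below Vcan.

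**Figure D2:**
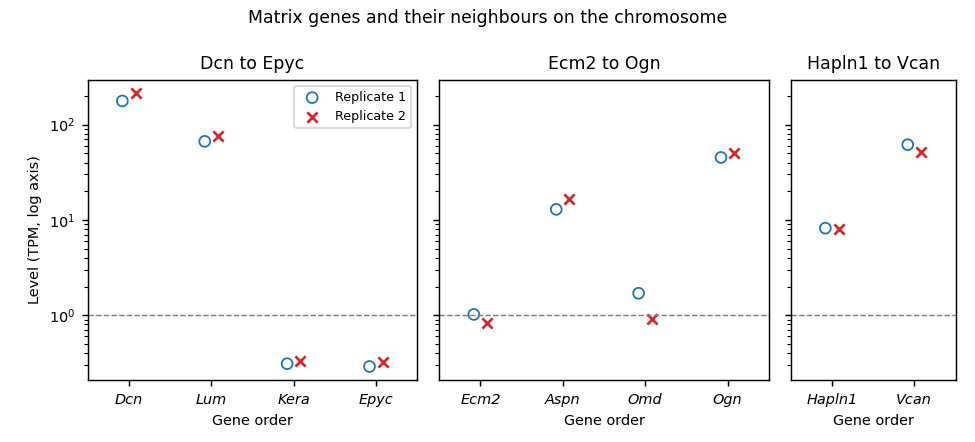
Level in TPM on a log axis for genes in their order on the chromosome at 3 loci, with replicate 1 as open circles and replicate 2 as crosses. Dcn and Lum lie above 60 TPM in both libraries, while Kera and Epyc, next in line, lie below the dashed line at 1 TPM.

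Of 10 other small leucine-rich proteoglycans, 3 were detected, with a median over all of them of 0.78 TPM. Aspn (asporin), Fmod (fibromodulin, 10.25 and 14.38 TPM) and Prelp (1.7 and 2.18 TPM) were the highest, and Podnl1 the lowest with 0.2 and 0.26 TPM. Summed, these 10 genes came to 29.4 and 36.88 TPM, less than Ogn alone, the lowest of the 4 family members on the list (Dcn, Bgn, Lum and Ogn).

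Versican was present in 3 forms. Its attachment regions for chondroitin sulfate chains are encoded by the alpha exon, of 2880 bases, and the beta exon, of 5217 bases, and splicing includes both (form V0), the beta exon alone (V1), the alpha exon alone (V2) or neither (V3). V0 (Vcan-203) was at 20.56 and 18.95 TPM, V3 (Vcan-201) at 17.96 and 16.33 TPM, and V1 (Vcan-206) at 13.16 and 11.5 TPM. V2 (Vcan-202), the form best known from brain, was listed at 0 in both libraries. Of the messages of these 4 forms, 65.25% and 65.09% held the beta exon and 39.78% and 40.51% the alpha exon. The order V0, V3, V1 was the same in both libraries, but in replicate 1 the deposited bounds of V0 (19.1687 to 20.8439 TPM) and V3 (15.2673 to 19.5933 TPM) overlapped, so the first 2 were not clearly apart there. Because TPM is per molecule, V3, whose model is 2321 bases long, counts as much as V0 with 12427 bases, although the latter took 5819.55 counts and V3 916.34 in replicate 1. The models of V3 and V1 (8332 bases) are shorter than V0 by more than the alpha and beta exons that they lack. The part of that difference in the division of reads, and so in the order of the forms and the exon shares, was not tested.

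Periostin messages differ near the 3' end of the coding region by exons whose length is a multiple of 3 bases. The exons are printed because the share of messages with each of them is the part of the Postn result that gene levels do not show. Both lie on the plus strand of chromosome 3 in GRCm38, the first at chr3:54380412-54380492 (81 bases, 27 codons) and the last at chr3:54385671-54385754 (84 bases, 28 codons). In the sequences, read 5' to 3' from GENCODE M21 transcripts, capitals mark the alternative exon and lower case the 8 bases of the exons on each side.

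Postn first alternative exon: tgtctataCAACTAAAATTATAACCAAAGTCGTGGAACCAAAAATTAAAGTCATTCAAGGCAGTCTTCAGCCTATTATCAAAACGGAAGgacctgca
Postn last alternative exon: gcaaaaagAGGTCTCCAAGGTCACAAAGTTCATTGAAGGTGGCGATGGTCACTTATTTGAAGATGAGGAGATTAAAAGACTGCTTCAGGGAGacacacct

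The first exon was in 50.83% of the Postn messages that span it in replicate 1 and in 42.85% in replicate 2. Postn-203, which has it and lacks the last exon, was the leading form with 43.26 and 41.14 TPM. Postn-204, which lacks both, was at 19.43 and 33.61 TPM, and its deposited bounds, 11.308 to 24.0067 and 26.9934 to 40.1277, did not overlap. Such bounds describe 1 library each and do not measure the spread between pools of embryos. Postn-201, with the last exon alone, was at 18.31 and 17.42 TPM, and the last exon was in 21.28% and 18.01% of messages. The form without either exon was thus the one with more TPM in replicate 2, while both forms with 1 exon had slightly less. The model of Postn-203 differs by 3 bases in length between the annotation of the files and GENCODE M21, the only such case among the 22 transcripts used for alternative exons. Tnc also has an alternative exon, of 273 bases, which was in 29.77% and 34.41% of its messages.

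Postn and S100a4 were the only members with the letters TATAAA on the gene's own strand 20 to 40 bases before an annotated start. RefSeq windows (GRCm38.p6) were found for 24 of the 39 genes, some with several starts, and 2 of 32 windows (6.25%) held these letters there, beside 1.99% of 32851 windows of all genes. Anywhere in the 250 bases before the start and on either strand, TATAAA was in 25.0% of the members' windows and 12.4% of all. Postn has 2 windows, and its leading transcript starts 2 bases from the one printed and 1842 bases from the other. The 100 bases before each start follow, from the plus strand at chr3:54361007-54361106 for Postn and chr3:90603670-90603769 for S100a4, with the matched letters in capitals.

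Postn: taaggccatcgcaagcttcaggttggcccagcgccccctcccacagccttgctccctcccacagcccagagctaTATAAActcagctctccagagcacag
S100a4: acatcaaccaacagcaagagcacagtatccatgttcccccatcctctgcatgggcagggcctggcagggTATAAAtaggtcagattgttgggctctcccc

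The match lies 26 bases before the start in Postn and 31 bases before it in S100a4. A match describes the letters only, and the levels of the 2 genes lay far apart, with Postn at 88.86 and 98.51 TPM and S100a4 at 2.95 and 4.62 TPM.

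Both PDGF receptors were well detected and nearly equal between the pools. Pdgfrb (chromosome 18) was at 55.12 and 55.25 TPM and Pdgfra (chromosome 5, 75152292 to 75198215, plus strand) at 37.49 and 37.54 TPM. Pdgfrb exceeded Pdgfra 1.47-fold and 1.472-fold, a difference of -0.56 on the log2 scale for Pdgfra minus Pdgfrb that held in each library. The receptor-like gene Pdgfrl was at 3.9 and 5.81 TPM.

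Among the ligands, Pdgfa was highest and Pdgfb lowest. Pdgfa was at 46.37 and 48.79 TPM, Pdgfc at 25.26 and 23.6, Pdgfd at 16.53 and 17.84 and Pdgfb at 3.18 and 4.38 TPM, with no overlap of neighbours in this order. Pdgfa exceeded Pdgfb 14.58-fold and 11.14-fold. This order holds for all transcripts of a gene: over those annotated as protein-coding, Pdgfc was at 3.47 and 3.86 TPM, below Pdgfd (16.53 and 17.84) and close to Pdgfb, with Pdgfa at 38.75 and 39.87 TPM. Of the exon bases of Pdgfa 26.1% are shared with 6330403L08Rik on the opposite strand (0.56 and 0.64 TPM). Pdgfb is known as a product of endothelium, whose 6 markers were all detected with summed levels of 460.9 and 476.2 TPM.

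Transcripts of 2 ligands carry alternative exons that bear on what is secreted, which is why their sequences are shown. The exon of Pdgfa, 69 bases at chr5:138978622-138978690 on the minus strand, adds a basic tail that holds the long form of PDGF-A at the cell surface and matrix. The exon of Pdgfc, 59 bases at chr3:81131018-81131076 on the plus strand, is not a multiple of 3 (remainder 2). Capitals mark the exon and lower case 8 bases on each side, in the direction of the message (GENCODE M21, GRCm38).

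Pdgfa alternative exon: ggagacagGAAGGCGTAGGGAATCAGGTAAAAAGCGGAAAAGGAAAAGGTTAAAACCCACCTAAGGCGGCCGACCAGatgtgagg
Pdgfc alternative exon: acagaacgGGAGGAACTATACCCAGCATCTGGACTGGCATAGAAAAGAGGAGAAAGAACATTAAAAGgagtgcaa

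The Pdgfa exon was in 12.42% of the messages that span it in replicate 1 and 9.104% in replicate 2, through Pdgfa-201 at 5.73 and 4.42 TPM. Forms without it, led by Pdgfa-202 at 25.39 and 25.59 TPM, made up the rest. The Pdgfc exon was in 86.27% and 83.64% of messages. Pdgfc-202, which holds it and is annotated as a target of nonsense-mediated decay, the pathway that degrades messages with an early stop, was the leading form at 21.63 and 19.66 TPM. The coding form Pdgfc-201, without the exon, was at 3.47 and 3.86 TPM, or 13.73% and 16.37% of the gene. The deposited bounds of the 2 forms, 19.6445 to 22.4476 and 2.67786 to 4.2312 TPM in replicate 1, did not overlap. The 2 models also begin 756 bases apart, and the part of that difference in the division of reads between them was not tested. Pdgfc was the only one of the 39 genes whose leading transcript was not annotated as protein-coding in replicate 1.

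**Figure D3:**
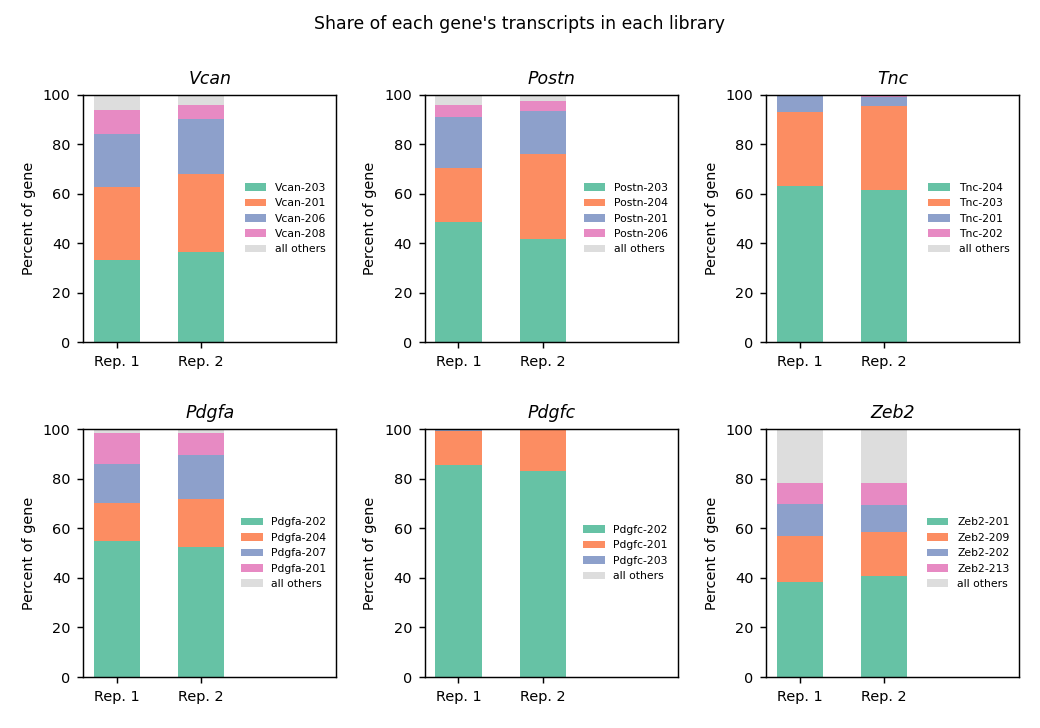
Percent of each gene's message assigned to its 4 leading transcripts (colours) and to all others (grey) in replicate 1 and replicate 2, for Vcan, Postn, Tnc, Pdgfa, Pdgfc and Zeb2. Pdgfc-202 takes 85.62% and 83.32% of Pdgfc, and Postn-204 takes 21.86% in replicate 1 and 34.11% in replicate 2.

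Across the list, 14 genes had 1 annotated transcript and 25 had several. Of these 25, 24 had the same leading transcript in both libraries, and 13 had at least 2 transcripts of 10% or more in both. The exception was Prrx1, where Prrx1-201 led in replicate 1 (37.49% of the gene, 22.2% in replicate 2) and the noncoding Prrx1-205 in replicate 2 (23.75% and 31.16%), with bounds that overlapped. Penk had a second form of 23.16% and 24.33% (Penk-202), and Pdgfd one of 25.31% and 26.56% (Pdgfd-202). Most genes with several transcripts had 1 dominant form, as the median leading share of 84.5% shows.

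The transcription factors ran from 79.175 TPM to 0.335 TPM in the mean, and in the Snai, Zeb, Ebf and Twist families 1 member stood above the others. Snai2 (Slug), a zinc finger repressor of epithelial genes that acts in epithelial-mesenchymal transition, was at 85.94 and 72.41 TPM, and Snai1 (Snail) at 40.38 and 34.28 TPM, with Snai2 higher by 2.128-fold and 2.112-fold. The relative Snai3 was at 0.64 and 0.65 TPM. Zeb2, a zinc finger homeobox repressor, was at 47.29 and 40.85 TPM and Zeb1 at 20.92 and 18.34 TPM, with Zeb2 higher by 2.261-fold and 2.227-fold. These ratios within families were close between the libraries, although each of the 4 genes was lower in replicate 2.

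Coding transcripts made up a smaller share of the Zeb genes than of most members. They took 60.95% and 71.03% of Zeb1, where the retained-intron form Zeb1-204 held 21.56% and 14.85%, and 72.27% and 76.79% of Zeb2, where the retained-intron form Zeb2-209 held 18.84% and 17.64%. Of the exon bases of Zeb2, 3.27% are shared with the antisense gene Zeb2os, at 1.21 and 1.14 TPM.

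Ebf1, an early B-cell factor also made in mesenchyme, was at 21.42 and 20.14 TPM, while Ebf2 (0.56 and 0.54 TPM) and Ebf3 (0.4 and 0.27 TPM) were below detection. Ebf1 exceeded Ebf2 38.25-fold and 37.3-fold and Ebf3 53.55-fold and 74.59-fold. Ebf4, not on the list, was at 1.88 and 1.75 TPM. Twist2, a basic helix-loop-helix factor of mesenchyme, was at 6.77 and 6.99 TPM and Twist1 at 1.18 and 1.51 TPM, the latter from 41 and 57 counts. Of the exon bases of Twist2, 46.5% are shared with the antisense gene Gm29100 (0.23 and 0.24 TPM).

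The homeobox factors Meox2 and Prrx1 were below Ebf1 in each library, and near the levels of their closest relatives. Meox2, known from muscle precursors and vessels, was at 10.21 and 7.17 TPM, and Meox1 at 12.66 and 12.77. Prrx1, a regulator of limb and skeletal mesenchyme, was at 5.55 and 5.91 TPM and Prrx2 at 6.59 and 6.52. In both pairs the gene outside the list was higher in each library, Meox1 by 1.24-fold and 1.781-fold and Prrx2 by 1.187-fold and 1.103-fold. Alx4, a relative of Alx1, was at 0.17 and 0.14 TPM. Tcf3 (103.92 and 100.45 TPM), Tcf4 (80.25 and 81.38) and Tcf12 (53.49 and 47.41), the E proteins with which Tcf21 and the Twist factors pair, were the highest of the 13 other relatives, 9 of which were detected. The median of the transcription factors minus that of the general fibroblast markers was -2.27 on the log2 scale (-1.95 and -2.63 in the 2 libraries), and -1.10 over detected members alone.

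The heparin-binding growth factors were high and unequal. Mdk (midkine), made widely in embryonic epithelium and mesenchyme, was the highest member at 969.56 and 973.31 TPM (chromosome 2, 91929805 to 91932297, minus strand), and 0.3679% of protein-coding genes were at or above its mean. Ptn (pleiotrophin) was at 131.23 and 136.54 TPM, and Mdk exceeded it 7.388-fold and 7.128-fold. Of their receptors, Ptprz1 and Alk were examined and were low, with Ptprz1 at 0.84 and 0.82 TPM and Alk at 0.13 and 0.07 TPM. Wfdc1, a small secreted protein with a whey acidic protein domain, was at 1.99 and 3.46 TPM from 51 and 96 counts.

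Between the pools the members differed little. The ratio of replicate 2 over replicate 1 was taken on the log2 scale from counts scaled so that the median gene is near 0, and 0 of 39 genes were past 2-fold, beside 2.35% of 15363 genes whose mean was at least 1 CPM, the count scaled to library size (361 genes). The median over the members was 0.03, and over all genes -0.00016. The 2 furthest from 0 among those whose exact 95% interval for counting error excluded 0 were Wfdc1 (0.76, interval 0.28 to 1.30) and Meox2 (-0.52, interval -0.71 to -0.33). Amplified reads without molecular identifiers are not independent molecules, so these intervals cover counting error only and say nothing of the spread between pools of embryos.

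That interval lay above 0 for 11 members, beside 20.5% of all genes, and below 0 for 9, beside 21.3% of all genes. As shares of the 39 both counts lie above the background, and the difference was not tested. The interval narrows as counts rise, and the members were not matched to the background by counts, so these shares are not directly comparable. Scaling to spike-in RNA moved the median of all genes to 0.43, so the directions that follow are relative to the median gene, and under that scaling all of the 9 lower members but Meox2 (-0.09) had a ratio above 0.

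**Figure D4:**
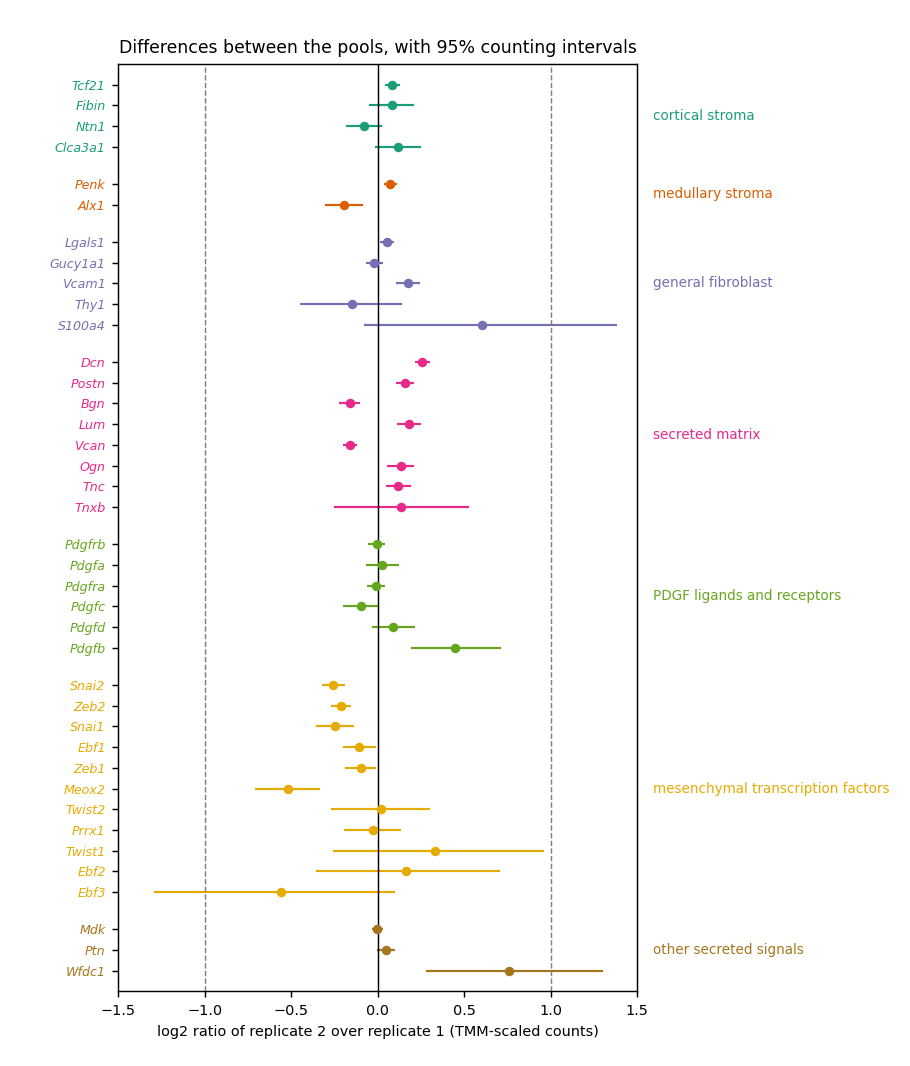
Log2 ratio of replicate 2 over replicate 1 from scaled counts for each matched gene (points), with exact 95% intervals for counting error (lines) and dashed lines at 2-fold. No point passes 2-fold, and the points of 6 transcription factors, led by Meox2 at -0.52, lie below 0 with their whole interval.

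Of the 9 members lower in replicate 2, 6 were among the 11 transcription factors. They were Meox2, Snai2 (-0.26), Snai1 (-0.25), Zeb2 (-0.21), Ebf1 (-0.11) and Zeb1 (-0.10), and none of the 11 was higher. The other 3 were Alx1 (-0.19), Bgn (-0.16) and Vcan (-0.16). Of all genes 21.3% were lower by the same rule, but the members were not matched to them by counts. The summed TPM of the transcription factors in replicate 2 was 0.8661 of that in replicate 1, beside 0.9308 for the 4 nephron progenitor markers in the same libraries (0.9772 without Cited1), and the part of that in the result was not tested.

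Of 8 matrix genes, 5 were higher in replicate 2, beside 20.5% of all genes, to which they were not matched by counts. These 5 were Dcn (0.26), Lum (0.18), Postn (0.16), Ogn (0.13) and Tnc (0.12). Dcn, Lum and Ogn, all small leucine-rich proteoglycans, were higher together, while Bgn of the same family was lower. Of the 6 family members outside the list that had a ratio, 3 were higher, namely Fmod (0.48), Prelp (0.35) and Aspn (0.34). Omd (-0.88) was lower, and the others were not apart. The interval of Tnxb ran from -0.25 to 0.53. The other members higher in replicate 2 were Tcf21 (0.08), Penk (0.07), Lgals1 (0.06), Vcam1 (0.17), Pdgfb (0.45) and Wfdc1. For Tcf21, Penk and Lgals1 the difference was at or below 0.08, although their many counts gave intervals clear of 0.

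Several lists of markers of other cell types differed more between the pools than any stroma group did. Those of mural and smooth muscle cells, 8 of 8 detected, summed to 451.3 TPM in replicate 1 and 816.7 TPM in replicate 2 (1.81-fold), and to 146.5 and 253.1 TPM without Acta2, the highest. The difference lay in contractile genes of smooth muscle, such as Acta2 (304.85 and 563.59 TPM) and Tagln (55.01 and 106.65), while the pericyte genes Cspg4 (15.88 and 16.75) and Rgs5 (21.04 and 22.7) were nearly level. Adrenal cortex markers, 6 of 6, summed to 99.24 and 154.1 TPM (1.552-fold), and mesothelium markers, 2 of 3, to 9.54 and 14.44 TPM (1.514-fold). Skeletal muscle markers, 4 of 5, summed to 94.6 and 192.6 TPM (2.036-fold). Most of this difference came from the actin gene Acta1 (48.29 and 138.67 TPM), and the other 4 summed to 46.31 and 53.98 TPM (1.166-fold). Of those 4, Ckm was at 11.58 and 17.64 TPM, Tnnt3 at 11.72 and 14.48, Myod1 at 0.57 and 0.69 and Mylpf at 22.44 and 21.17. Chromaffin and nerve markers, 6 of 7, were lower, at 70.09 and 44.87 TPM (0.6402-fold). Gonad markers were low, 1 of 4 detected, but their sums of 1.11 and 7.05 TPM had the largest fold of the lists (6.351-fold). Without their highest gene the sums were 0.03 and 0.59 TPM, and Foxl2 and Dmrt1 were listed at 0.

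With all matched genes the stroma groups lay between 0.8661-fold and 1.083-fold. The secreted matrix summed to 547.3 and 592.9 TPM (1.083-fold), and cortical, medullary and general fibroblast markers differed by 1.062-fold, 1.056-fold and 1.05-fold. Without Dcn the matrix ratio was 1.025, and without Penk the medullary ratio was that of Alx1 alone, 0.8781. Endothelium (1.033-fold), macrophages (1.016-fold), epithelium (1.038-fold) and podocytes (0.9699-fold) lay in the same range. The part of RNA from adrenal, muscle, mesothelial, gonad and vessel wall cells in the differences of the stroma genes between the pools was not tested.

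**Figure D5:**
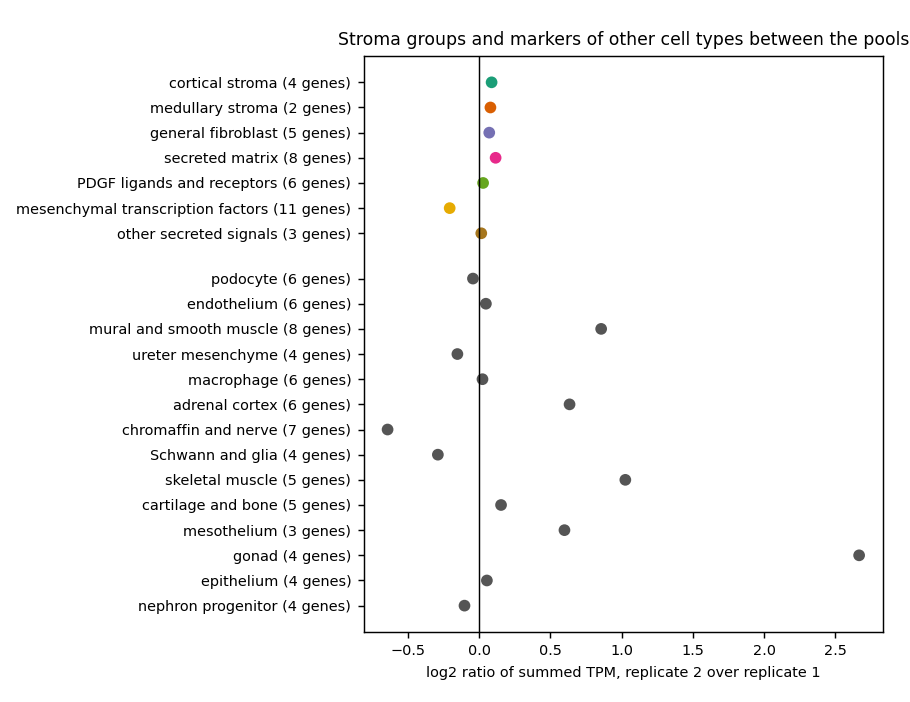
Log2 ratio of the summed TPM of each gene group, replicate 2 over replicate 1, for the 7 stroma groups (colours) and 14 lists of markers of other cell types (grey). The stroma groups lie near 0, the transcription factors lowest among them. Gonad, skeletal muscle (mostly through Acta1), mural and adrenal markers lie to the right and chromaffin and nerve markers to the left.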

How the data were processed

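Per the labels, total RNA of 2 pools was extracted with a mirVana kit, spike-ins were added and a SMARTer Ultra Low manual is cited. Values refer to mm10 and annotation M4 per the deposited notes. The sources used here name no aligner, quantifier or strand setting, so counts of members with an antisense partner are uncertain. The authors deposited expected counts (estimated, not whole), TPM, FPKM, posterior TPM bounds (treated as a signal) and the percent of each transcript within its gene. A TPM value can lie outside its own bounds: Lgals1-201 in replicate 1 was at 539.61 TPM with an upper bound of 537.22. Names, gene types and exons came from GENCODE M21 (GRCm38), promoters from RefSeq. Of 43346 mouse genes, 42462 had an identifier there. Of 133 member transcripts, 107 had the same length in both annotations.

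Rounded expected counts were scaled by edgeR 4.0.16 (TMM, R 4.3.3) with a prior count of 2, for genes of at least 1 CPM in the mean. Intervals of the pool ratios are exact (Clopper-Pearson, 95%), and those of the TPM of S100a4 are exact limits of a Poisson count (95%). The code was tested on simulated data. DESeq2 1.42.0 size factors, library size, spike-ins, FPKM, other thresholds and pseudocounts and single libraries were alternatives. Python 3.11.15, pandas 2.3.3, scipy 1.17.1 and matplotlib 3.10.9 were used. The members and lists were chosen with earlier results of these data known. All 40 members are named. The rule for other lists took the 3 highest genes, the lowest, and any gene that a member's result turns on. It was not followed throughout, as marker lists of other cell types are given mostly as sums. A gene that this rule takes is not reported here.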

Additional observations from a re-analysis of the deposited data

How the results depend on the processing

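No paired analysis was possible because the 2 libraries form 1 group. The count of detected members was 31 to 37 of 39 under every threshold and unit tried, and the single libraries gave 36. The median difference of cortical minus medullary markers was -2.62 with a pseudocount of 1, -1.71 with the mean and -0.685 without Fibin and Clca3a1, and -2.69 to -2.65 over the single libraries. Zone minus fibroblast markers turned to 0.50 with the mean and to 1.00 without Fibin and Clca3a1. Matrix minus fibroblast markers moved to 0.75 over detected members and 0.22 with the mean. Matrix minus zone markers moved to 1.54 with a pseudocount of 1 and 1.74 over detected members, and turned to -0.28 with the mean and -0.413 without Fibin and Clca3a1. Transcription factors minus fibroblast markers moved to -1.10 over detected members. The leading transcript share was 83.3% to 84.2% over the single libraries.

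Scaling to spike-ins put 2 members past 2-fold (S100a4 at 1.01 and Wfdc1 at 1.18) and the member median at 0.46, and turned Alx1 (0.24), Bgn (0.27), Ebf1 (0.33), Snai1 (0.19), Snai2 (0.17), Vcan (0.27), Zeb1 (0.33) and Zeb2 (0.22) to above 0. These ratios move with the median of all genes by construction. The member median was -0.0083 over genes of at least 5 CPM. DESeq2 size factors and library size turned no member whose interval excluded 0, and the ratio of TPM moved Vcan alone by more than its counting error, to -0.25. Counts under 60 in both libraries limit S100a4, Twist1 and Ebf3. List sums without the highest gene and the coding transcripts of the PDGF ligands were added after the data were seen.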
